A study of Homo sapiens with 6 samples.

Results

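The 40 genes described here encode proteins of the contractile unit of skeletal muscle, of its calcium handling and of its energy supply. They were chosen by gene symbol from a list, and all 40 were found, each once, among the 60606 genes of the table. They fall into 14 genes typical of fast fibers, 7 typical of slow fibers and 19 shared by both. RNA was sequenced from 6 tumors of the human breast cancer line MDA-MB-231, grown from unmodified cells injected with Matrigel under the flank skin of NSG mice, mice that lack lymphocytes of the T, B and natural killer kinds. The 3 control tumors were not irradiated. The 3 irradiated tumors received 10 Gy of X-rays in 1 local dose once they measured about 800 mm3, and were collected 3 days later. The labels give no volume or day for the controls and do not say that each tumor came from its own animal, so the spread that the p-values rest on may in part be technical.

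In a muscle fiber, myosin heavy and light chains form the thick filament and pull on the actin of the thin filament. Troponin and tropomyosin on the thin filament hold contraction off until calcium, let out of the sarcoplasmic reticulum by the ryanodine receptor, binds troponin C. A calcium pump returns the calcium, and creatine kinase and glycogen phosphorylase help to renew the ATP that is spent. Fast and slow fibers build the same machine from different isoforms, so the isoforms show which kind of fiber a muscle transcript is typical of. The values were made against the human genome build hg38, and whether mouse reads were removed is not given in the sources used here, so the species of a muscle transcript cannot be read from the table.

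Of the genes checked for the cell line, some followed its usual description and some did not. Vimentin (VIM), abundant in this mesenchymal line, was at 3148 to 5283 TPM (a share of all transcripts, scaled for gene length) in the 6 tumors, while the estrogen receptor ESR1 reached at most 0.32 TPM and E-cadherin (CDH1) at most 0.21 TPM. Other genes listed as low or absent in this line were present, with ERBB2 at 25.4 to 40.7 TPM, EPCAM at 2.90 to 5.10 TPM, GATA3 at 1.91 to 4.30 TPM and FOXA1 at 1.59 to 4.34 TPM. TPM keeps no depth, so read depth is unknown and no counting interval can be given.

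The promoters of 3 members with differences of about 3 or more on the log2 scale are shown as examples of how muscle promoters carry short regulatory words. They were picked with their words in view and do not stand for the 40, and the windows of CASQ1 and CKM are left out because they run further into annotated transcripts. Each line gives the 250 bases before the RefSeq start on GRCh38.p14, 5′ to 3′ on the gene's strand. Capitals mark the words CAGCTG (an E-box that myogenic factors prefer), CATTCC (the MCAT word of TEAD factors), TATAA, the MEF2 consensus and the CArG box of serum response factor, each searched on both strands. Some of these words can overlap one another. ACTA1 encodes skeletal muscle actin, and MYH1 and MYH4 the fast myosin heavy chains IIx and IIb.
ACTA1, chr1:229434095-229434344, minus strand: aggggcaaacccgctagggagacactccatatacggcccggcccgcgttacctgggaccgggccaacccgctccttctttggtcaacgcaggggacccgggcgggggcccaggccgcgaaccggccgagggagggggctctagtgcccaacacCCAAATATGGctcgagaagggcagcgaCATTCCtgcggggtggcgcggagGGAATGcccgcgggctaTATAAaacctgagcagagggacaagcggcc
MYH1, chr17:10518543-10518792, minus strand: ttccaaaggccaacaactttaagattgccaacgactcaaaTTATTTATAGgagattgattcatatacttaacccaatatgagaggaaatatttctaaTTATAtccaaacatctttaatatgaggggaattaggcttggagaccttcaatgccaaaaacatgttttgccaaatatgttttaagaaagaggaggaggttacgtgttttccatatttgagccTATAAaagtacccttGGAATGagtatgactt
MYH4, chr17:10469560-10469809, minus strand: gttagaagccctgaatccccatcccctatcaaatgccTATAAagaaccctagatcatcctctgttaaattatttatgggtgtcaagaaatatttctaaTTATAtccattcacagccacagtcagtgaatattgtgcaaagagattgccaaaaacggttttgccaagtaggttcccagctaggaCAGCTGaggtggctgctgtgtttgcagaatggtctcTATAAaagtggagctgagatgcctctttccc
Of the 40 genes, 25 had a promoter in the RefSeq table. A gene with several windows was counted once if any of them held a word, among the 25 and among all 27305 genes of the table alike. CAGCTG was found in 10 of the 25, against 16.7% of all genes. The MEF2 consensus was found in 7 of the 25, against 3.44% of all, the CArG box in 3, against 1.44%, CATTCC in 6, against 14.3%, and TATAA in 13, against 22.5%. The window of CASQ1 held none of these words, and that of CKM held CAGCTG and TATAA. The window of TNNT1, which also runs into an annotated transcript, held TATAA and an E-box of the looser form CANNTG, which 66.7% of all genes hold. These matches describe letters in human sequence and show no binding, and whether they bear on the level of a gene was not tested.

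Fast fiber transcripts were present in the 3 control tumors and in irradiated tumor 2, and nearly absent from irradiated tumors 1 and 3, while TNNT1, ENO3 and FBXO32 were present in all 6 tumors. All 40 genes summed to 610, 690 and 1112 TPM in control tumors, against 384, 569 and 239 TPM after irradiation. Without TNNT1, the other 39 genes summed to 333.22, 369.61 and 829.4 TPM in control tumors. Irradiated tumors 1, 2 and 3 then held 33.97, 247.28 and 34.99 TPM, so most of the total in irradiated tumors 1 and 3 was TNNT1. The 14 fast genes summed to 129, 171 and 341 TPM in control tumors 1, 2 and 3. Irradiated tumors 1, 2 and 3 held 1.59, 88.7 and 2.28 TPM. The 19 shared genes summed to 199, 192 and 462 TPM in control tumors, against 30.3, 155 and 30.0 TPM after irradiation. All 3 irradiated sums lay below all 3 control sums in both classes, but irradiated tumor 2 lay closer to the lowest control than to either other irradiated tumor. The 7 slow genes summed to 282, 327 and 308 TPM in control tumors against 352, 325 and 207 TPM after irradiation, which overlap. That sum is nearly all TNNT1, and the other 6 slow genes summed to 5.09, 6.12 and 25.7 TPM in control tumors, against 2.04, 3.35 and 2.73 TPM after irradiation. In a bulk tumor sample, fewer cells of a type and less RNA per cell cannot be told apart.

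**Figure D1:**
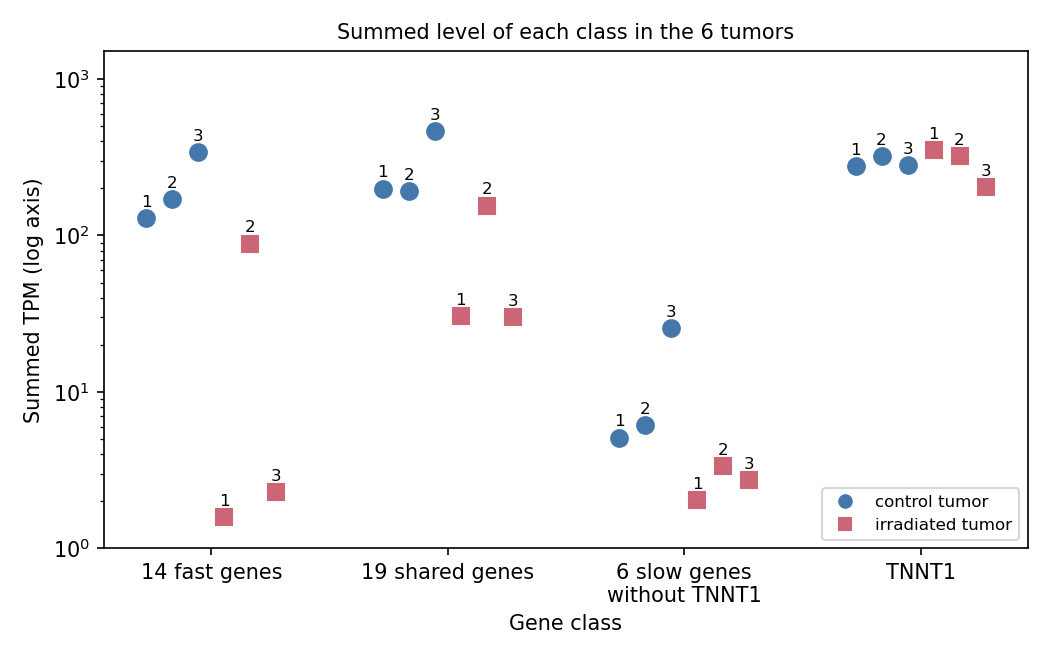
Summed TPM on a log axis of the 14 fast genes, the 19 shared genes, the 6 slow genes without TNNT1, and TNNT1 alone, with 1 point per tumor (circles control, squares irradiated, numbers the tumor). Irradiated tumors 1 and 3 sit at 1.59 and 2.28 TPM for the fast genes and tumor 2 at 88.7 TPM, while TNNT1 overlaps between the groups.

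Over all 40 genes without any filter, the irradiated mean was the lower one in 36. Of the 30037 genes above 0 in at least 1 tumor, 52.7% had a lower irradiated mean. All 3 irradiated values lay below all 3 control values in 22 of the 40 (10 of 14 fast, 3 of 7 slow and 9 of 19 shared), where this held for 8.97% of the 30037 genes above 0 in at least 1 tumor. Irradiated values lay above all controls in 2 of the 40, MYL2 and TCAP, where this held for 8.11% of those genes, and the groups overlapped in the other 16. Irradiated tumor 2 was the highest of the irradiated tumors in 28 genes, 13 of them fast, where this held for 30.1% of the 30037 genes. Control tumor 3 was the highest of the controls in 34 genes, including all 14 fast ones, where this held for 30% of the 30037 genes. Both tumors were singled out from their values, so these counts are a description.

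**Figure D2:**
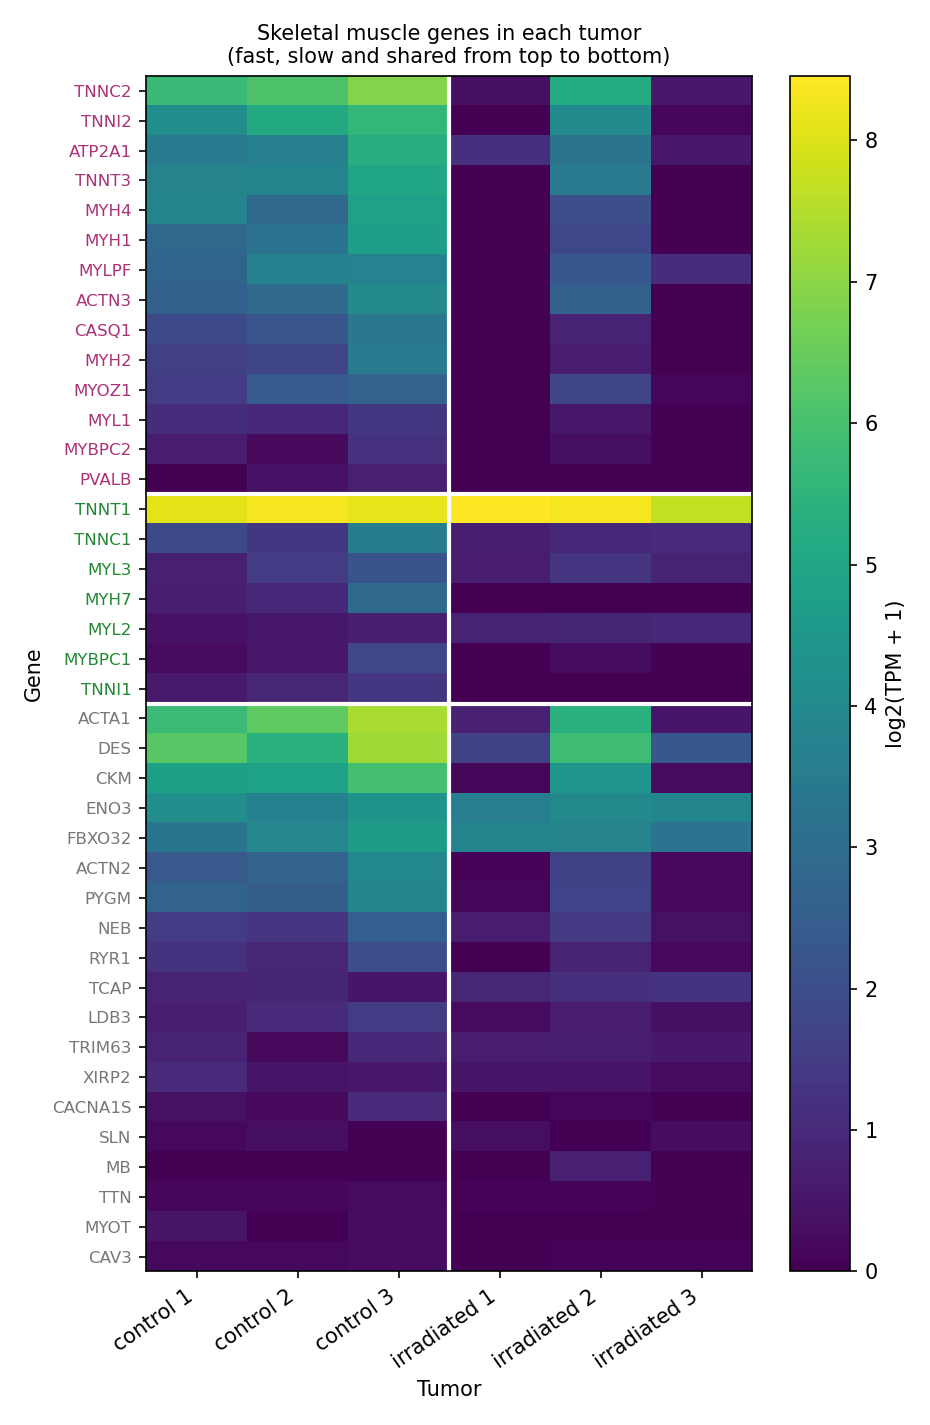
log2(TPM + 1) of the 40 genes (rows, sorted by mean level within the fast, slow and shared classes) in the 6 tumors (columns). The columns of irradiated tumors 1 and 3 are dark for most fast and shared genes, and TNNT1 is bright in every tumor. Irradiated tumor 2 resembles the controls at lower levels for many fast and shared genes. Among slow genes, MYH7 and TNNI1 are listed at 0 in irradiated tumor 2, and TNNC1 lies between the other irradiated tumors.

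A gene was tested where its mean over the 6 tumors reached 1 TPM, which 24 of the 40 genes did (11 fast, 4 slow and 9 shared). Of these 24, 11 had an irradiated mean under 1 TPM and so passed through their level in the controls, where this held for 3.28% of all genes tested. Counts over the 24 are therefore given only as a description. The genes nearest the limit were RYR1 inside it, at a mean of 1.02 TPM, and TCAP outside it, at 0.908 TPM. Each difference below is the irradiated mean less the control mean of log2(TPM + 1), a scale that makes changes of low genes look smaller, and adjusted p-values are limma's with Benjamini-Hochberg adjustment over all 14140 genes tested. Of these 14140 genes, 1.61% were called lower and 1.37% higher at an adjusted p under 0.05. Of the 24 muscle genes, 3 were called lower, all of them fast (MYH1, MYH4 and CASQ1), and 0 higher. MYH1 and CASQ1 were among those with an irradiated mean under 1 TPM (0.857 and 0.257 TPM), and that of MYH4 was 1.02 TPM. At an unadjusted p under 0.05 there were 20, all lower, of which 11 were fast, 2 slow and 7 shared, where 20.5% of all genes tested were under it and 11.5% were under it and lower. The median difference was -2.50 over the 11 tested fast genes, -0.97 over the 4 slow ones and -2.34 over the 9 shared ones, where it was -0.056 over all genes tested. With no filter, so over all 14, 7 and 19 genes, the medians were -2.27, -0.76 and -0.35. The slow median was -0.041 with a minimum mean of 5 TPM, which left TNNT1 alone, and -0.19 without control tumor 3.

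**Figure D3:**
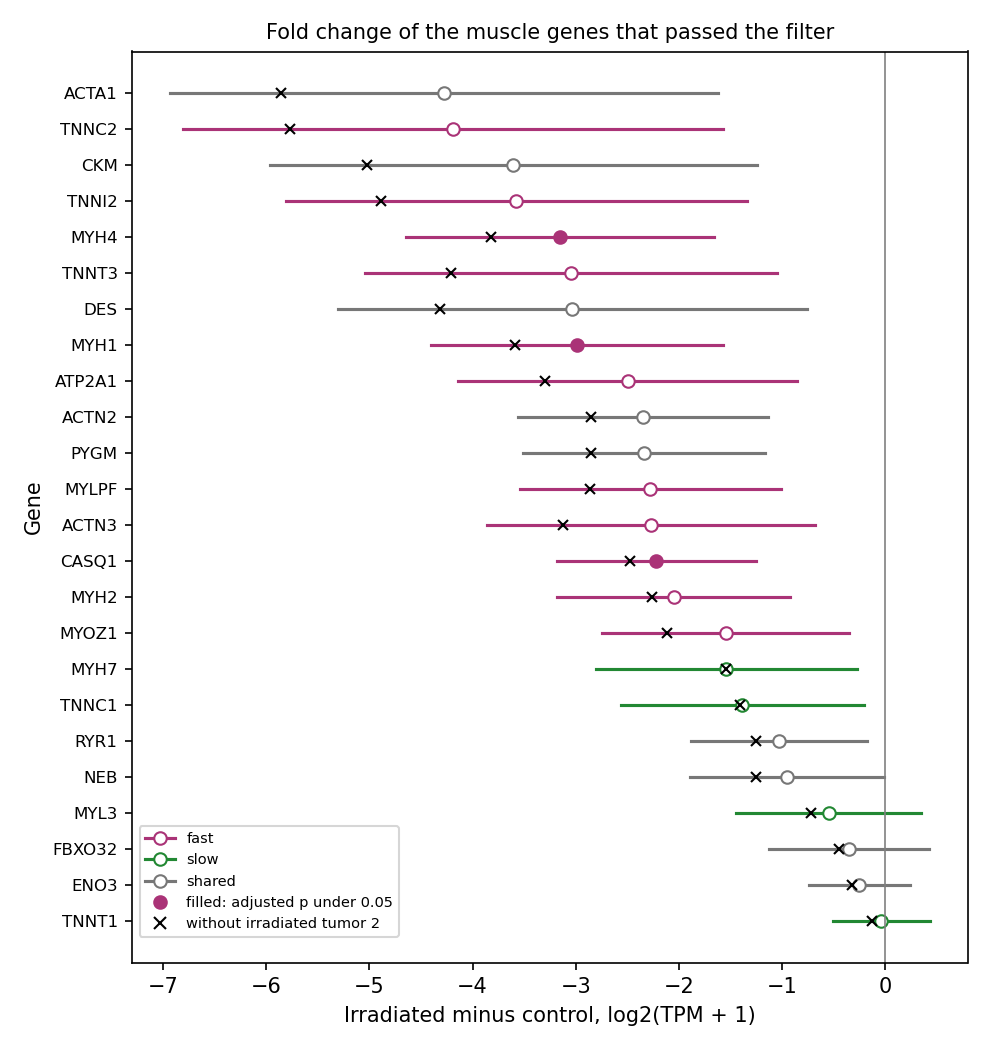
Difference in mean log2(TPM + 1), irradiated less control, for the 24 tested genes, with 95% intervals from limma (lines), filled points for the 3 genes with an adjusted p under 0.05, and crosses for the same difference without irradiated tumor 2. ACTA1 and TNNC2 have the largest differences (-4.27 and -4.19) but also the widest intervals, and TNNT1, ENO3 and FBXO32 lie near 0.

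The fast myosin heavy chains, the motor proteins of fast fibers, carried 2 of the 3 calls. MYH1 (chromosome 17, 10492307 to 10518543, GRCh38) was at 6.13, 8.37 and 26.0 TPM in control tumors, listed at 0 in irradiated tumor 1, and at 2.55 and 0.02 TPM in irradiated tumors 2 and 3. MYH4 (chromosome 17, 10443290 to 10469559) was at 13.1, 6.02 and 27.7 TPM in control tumors, at 3.06 TPM in irradiated tumor 2, and listed at 0 in the other irradiated tumors. Each gene's 3 irradiated values lay below its 3 controls. MYH1 fell by 2.99 (SE 0.617, adjusted p = 0.0437) and MYH4 fell by 3.15 (SE 0.650, adjusted p = 0.0437). MYH2, the chain of fast oxidative IIa fibers (chromosome 17, 10521148 to 10549957), was at 2.05, 2.39 and 9.90 TPM in control tumors against 0.02, 0.55 and 0 TPM after irradiation. It did not overlap either, and its difference of -2.05 had an adjusted p of 0.0681.

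These 3 genes lie side by side and share sequence, so how reads were assigned among them can move each value. Of the 50-base stretches of the longest coding transcript in GENCODE release 29, 20.8% in MYH1, 17.1% in MYH2 and 13.6% in MYH4 also occur in another gene. Summed, the 3 chains were at 21.3, 16.8 and 63.6 TPM in control tumors against 0.02, 6.16 and 0.02 TPM after irradiation, a difference of -3.92 (limma adjusted p = 0.0407). The slow chain MYH7, which shares 14.5% of its stretches with other genes, was at 0.65, 0.95 and 6.65 TPM in control tumors and was listed at 0 in all 3 irradiated tumors, tumor 2 included. Its difference of -1.54 did not pass (limma adjusted p = 0.166), and control tumor 3 held most of the signal.

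Myosin light chains, which brace the neck of the myosin head, were less even. MYLPF, the fast regulatory chain, was at 5.68, 12.0 and 12.6 TPM in control tumors, listed at 0 in irradiated tumor 1, and at 3.92 and 1.11 TPM in irradiated tumors 2 and 3 (difference -2.28, limma adjusted p = 0.0700). MYL1, the fast essential chain, reached only 0.97 to 1.51 TPM in control tumors, was at 0.46 TPM in irradiated tumor 2 was listed at 0 in the other irradiated tumors, and did not reach the filter. MYL2, the slow regulatory chain, went the other way at very low levels, with 0.32, 0.47 and 0.65 TPM in control tumors against 0.79, 0.83 and 0.90 TPM after irradiation. MYL3, the slow essential chain, overlapped between the groups (0.68 to 3.56 TPM in controls, 0.59 to 1.40 TPM in irradiated tumors).

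The 3 subunits of fast troponin, the calcium switch of the thin filament, were among the most abundant members. TNNC2, which binds calcium (chromosome 20, 45823214 to 45833745), was at 50.5, 67.2 and 116 TPM in control tumors, against 0.26, 35.7 and 0.47 TPM in irradiated tumors 1, 2 and 3. TNNI2, the inhibitory subunit, was at 17.3, 33.9 and 47.5 TPM in control tumors, listed at 0 in irradiated tumor 1, and at 15.3 and 0.12 TPM in the other irradiated tumors. TNNT3, which binds tropomyosin, was at 12.8, 13.1 and 31.3 TPM in control tumors, at 10.0 TPM in irradiated tumor 2 and listed at 0 in the other irradiated tumors. In all 3 subunits irradiated tumor 2 lay below the lowest control and above the other irradiated tumors, and the groups did not overlap. The differences of -4.19, -3.58 and -3.05 did not pass over all genes (limma adjusted p = 0.0915, 0.0918 and 0.101), and the irradiated tumors differed widely among themselves (12.1 ± 20.4 TPM for TNNC2, SD, n = 3, against 78.0 ± 34.1 TPM in controls).

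The slow troponins behaved apart from one another. TNNT1, the slow subunit that binds tropomyosin (chromosome 19, 55132794 to 55149354), was at 277, 321 and 283 TPM in control tumors, against 350, 322 and 204 TPM after irradiation. It was the most abundant member in every tumor, was high also in the tumors that had almost no fast troponin, and did not pass the test (difference -0.041, 95% interval -0.51 to 0.43, limma adjusted p = 0.935). TNNC1, the slow calcium-binding subunit, was at 2.73, 1.58 and 10.8 TPM in control tumors against 0.64, 0.91 and 1.03 TPM after irradiation. Its groups did not overlap, its difference of -1.39 did not pass (limma adjusted p = 0.176), and irradiated tumor 2 did not stand out from the other irradiated tumors. TNNI1, the slow inhibitory subunit, was at 0.52, 0.89 and 1.54 TPM in control tumors against 0.02, 0 and 0 TPM after irradiation.

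Among calcium genes, CASQ1, which stores calcium in the sarcoplasmic reticulum and is listed here as fast (chromosome 1, 160190556 to 160201886), was called. It was at 2.71, 3.76 and 9.22 TPM in control tumors, against 0.03, 0.74 and 0 TPM after irradiation, with no overlap. CASQ1 fell by 2.22 (SE 0.420, limma adjusted p = 0.0337), the smallest adjusted p of the 24 tested members. ATP2A1, the fast calcium pump, was at 10.3, 11.9 and 37.6 TPM in control tumors against 1.24, 8.61 and 0.45 TPM after irradiation (difference -2.50, limma adjusted p = 0.102). An antisense gene, ATP2A1-AS1, covers 5.36% of its exons and was at 2.35 to 8.54 TPM, and the use of strand is not given. RYR1, the calcium release channel, was at 1.35, 0.88 and 2.96 TPM in control tumors against 0.01, 0.74 and 0.17 TPM after irradiation (difference -1.03, limma adjusted p = 0.169). CACNA1S, the voltage sensor that opens RYR1, stayed at or under 1.08 TPM in every tumor, and so did sarcolipin (SLN), a small inhibitor of the pump (up to 0.27 TPM), and the calcium buffer PVALB (up to 0.66 TPM).

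Of the thin filament, Z-disc and energy genes shared by both fiber kinds, ACTA1, CKM, PYGM and ACTN2 had no overlap between the groups, while DES, NEB and ENO3 overlapped. ACTA1 (chromosome 1, 229431245 to 229434098) was at 53.7, 82.0 and 165 TPM in control tumors against 0.73, 41.0 and 0.43 TPM after irradiation, the largest difference of any tested member (-4.27, SE 1.16, limma adjusted p = 0.0907). CKM, the creatine kinase of muscle (chromosome 19, 45306414 to 45322977), was at 26.7, 28.7 and 60.0 TPM in control tumors against 0.09, 20.5 and 0.19 TPM after irradiation (difference -3.61, limma adjusted p = 0.101). PYGM, muscle glycogen phosphorylase, and ACTN2, an actinin of the Z-disc, came near the threshold, with differences of -2.34 and -2.35 (limma adjusted p = 0.0533 and 0.0560). ACTN3, the actinin of fast fibers, was at 5.16, 6.55 and 14.7 TPM in control tumors, against 5.16 TPM in irradiated tumor 2, equal to the lowest control, and at 0.04 and 0.02 TPM in the other irradiated tumors. DES, the intermediate filament desmin, overlapped between the groups, and irradiated tumor 2 at 55.7 TPM exceeded control tumor 2 at 40 TPM. The other irradiated tumors held 2.16 and 3.94 TPM of DES.

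Several members hardly registered even where ACTA1 and TNNC2 were high. Titin (TTN), the giant spring of the sarcomere, was at 0.12, 0.12 and 0.19 TPM in control tumors against 0.06, 0.05 and 0.04 TPM after irradiation, and antisense genes overlap it. Myoglobin (MB), the oxygen store of oxidative fibers, was listed at 0 in 5 tumors and at 0.66 TPM in irradiated tumor 2. TCAP, which caps titin, stayed at 0.39 to 1.34 TPM, with the irradiated values above the controls. MYOT, CAV3, XIRP2 and LDB3, proteins of the Z-disc, the membrane or the myotendinous region, ranged from 0 to 1.74 TPM in the controls. NEB, the ruler of the thin filament, was at 1.84, 1.47 and 4.76 TPM in control tumors against 0.57, 1.70 and 0.31 TPM after irradiation. In all, 16 genes in control tumor 1, 17 in control tumor 2 and 10 in control tumor 3 were under 1 TPM, against 35, 20 and 33 in irradiated tumors 1, 2 and 3.

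A few members differed little between the groups. ENO3, the muscle enolase, was at 16.9, 12.1 and 19.7 TPM in control tumors against 11.4, 14.7 and 13.7 TPM after irradiation (difference -0.25, 95% interval -0.74 to 0.23, limma adjusted p = 0.537). PFN1, a gene on the opposite strand at 2571 to 4259 TPM, covers 2.59% of the exons of ENO3, so part of its reads may not be told apart. FBXO32 and TRIM63 encode the ubiquitin ligases atrogin-1 and MuRF1, which tag muscle protein for breakdown in atrophy. FBXO32 was at 8.75, 14.2 and 24.0 TPM in control tumors against 12.9, 12.9 and 8.28 TPM after irradiation (difference -0.35, 95% interval -1.13 to 0.43, limma adjusted p = 0.590). TRIM63 was at 0.76, 0.13 and 0.91 TPM in control tumors against 0.55, 0.64 and 0.49 TPM after irradiation. Both overlapped between the groups. Of 16 further genes of atrophy and proteolysis, 14 were tested, 0 were called by limma (2 at an unadjusted p under 0.05), and the median difference was 0.025. ATF4, a transcription factor of the stress response, was the most abundant of these, at 321 to 496 TPM.

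How much of the control level irradiated tumor 2 kept differed between genes. Taking the 25 genes with a control median of at least 1 TPM, irradiated tumor 2 held 19.7% (CASQ1) to 114% (TNNT1) of that median, with a median of 54.4%. The fast myosin chains MYH1, MYH2 and MYH4 stood at 30.5%, 23.0% and 23.4%, and the fast troponins TNNI2, TNNC2 and TNNT3 at 45.2%, 53.1% and 76.7%. ACTN3 stood at 78.8%, CKM at 71.3% and ACTA1 at 49.9%. The same genes were under 1% of the control median in irradiated tumors 1 and 3. Of the 12 fast genes in this comparison, 10 were under 5% in both of those tumors, the exceptions being ATP2A1 (10.5% in tumor 1) and MYLPF (9.22% in tumor 3). This has no replicate, since it sets 1 tumor against the rest.

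**Figure D4:**
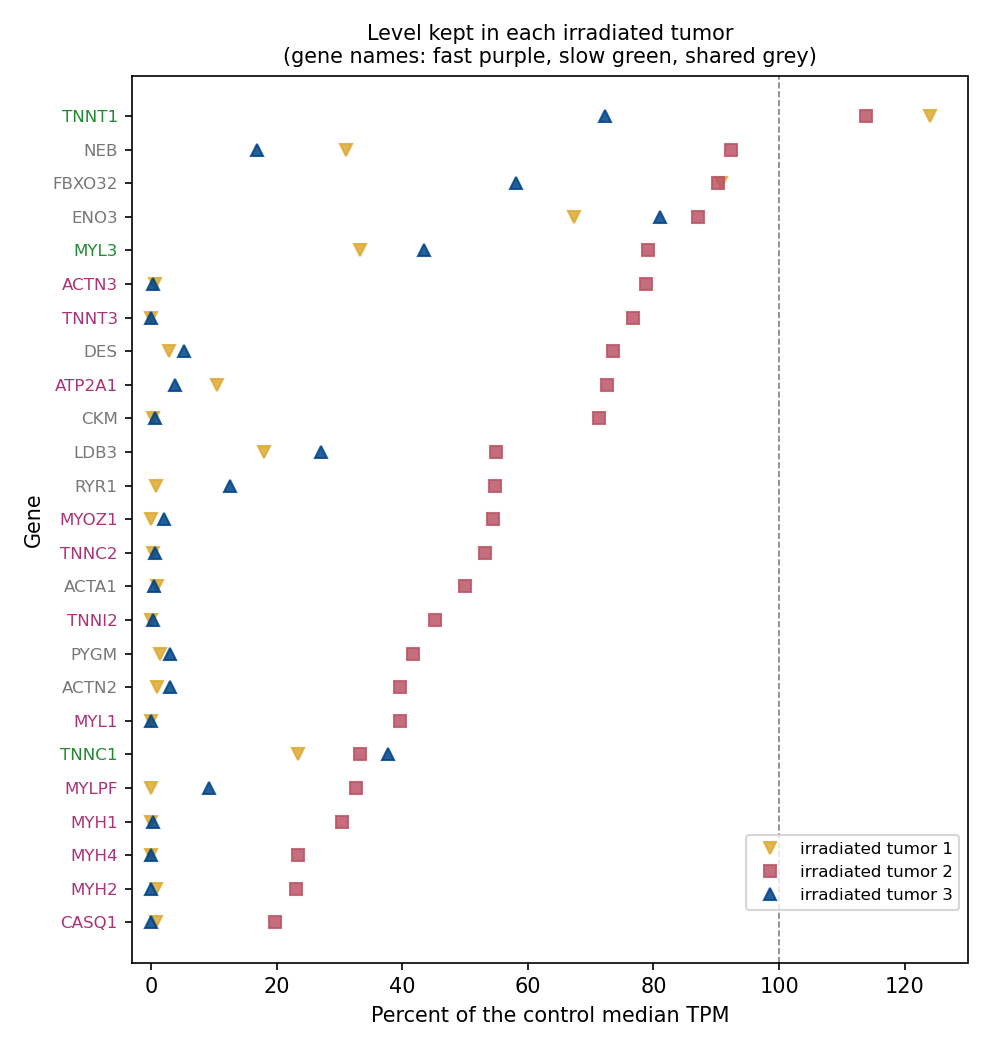
TPM of the 25 genes with a control median of at least 1 TPM, as percent of that median, in irradiated tumors 1 (downward triangles), 2 (squares) and 3 (upward triangles), with the dashed line at 100%. Tumor 2 spreads from 19.7% to 114%, while tumors 1 and 3 crowd near 0 for the fast genes and lie higher for TNNT1, FBXO32, ENO3, NEB, MYL3, TNNC1 and LDB3.

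The number of calls rested on single tumors. Without irradiated tumor 2, 13 muscle genes were called lower (8 fast, 0 slow and 5 shared, with 2 slow genes at an unadjusted p under 0.05), where 0.8% of genes were called lower in that fit. They were MYH1, MYH4, TNNC2, TNNI2, TNNT3, MYLPF, ACTN3, ATP2A1, ACTA1, CKM, DES, ACTN2 and PYGM, while CASQ1 was not among them (limma adjusted p = 0.0515). TNNC2 then differed by -5.77 (limma adjusted p = 2.9e-04) and ACTA1 by -5.85 (adjusted p = 8.9e-04). That tumor is left out because of its values, so the larger count describes irradiated tumors 1 and 3 and is no test of irradiation. Without control tumor 2 the 2 calls were CASQ1 and MYH4, where 3.95% of genes were called lower. With control tumor 1, control tumor 3, irradiated tumor 1 or irradiated tumor 3 left out, there were 0 by limma, where 0.575%, 0.54%, 0.475% and 0.495% of genes were called lower, and 19, 15, 16 and 15 muscle genes at an unadjusted p under 0.05. MYH1, MYH4 and CASQ1 then had adjusted p up to 0.145, 0.145 and 0.116. Without irradiated tumor 2 and control tumor 3 together, the tumors that stood out in each group, 12 muscle genes were called lower, where 0.47% of genes were, and without irradiated tumor 2 and control tumor 2 there were 9, where 0.878% were.

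Other settings of the fit gave 0 to 7 calls. With a pseudocount of 5 TPM limma called 0 muscle genes (17 at an unadjusted p under 0.05), where 1.34% of all genes were called lower, and with no filter it called 0 of 40 (23 unadjusted), where 0.213% were. CASQ1 alone was called with a pseudocount of 0.1 TPM, without limma's trend and with robust estimates, where 1.65%, 1% and 2% of genes were called lower. MYH1 and MYH4 alone were called with a minimum mean of 5 TPM, where 2% were. Sample weights gave 7 calls, with MYH2, ACTN2, PYGM and the slow TNNC1 beside the 3 named above, where 4.51% of genes were called lower. Quantile normalization added PYGM to the 3, where 1.96% were. Scaling by medians of ratios and leaving out mitochondrial and ribosomal protein genes gave the same 3, where 1.74% and 1.67% were. With MYH1, MYH2 and MYH4 summed, their sum and CASQ1 were called, where 1.6% were.

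Further lists of muscle genes outside the 40 held 1 called gene. Of 31 further sarcomere genes, 10 were tested, 1 was called lower, TPM1, and the median difference was -0.21. TPM1, a tropomyosin that other cells make as well, fell from 342 ± 82.2 to 140 ± 49.5 TPM (SD, n = 3, difference -1.31, limma adjusted p = 0.0411). Of 22 further calcium and excitation genes 6 were tested, with 0 calls by limma (0 also at an unadjusted p under 0.05) and a median of -0.12. Of 24 genes of muscle metabolism 10 were tested, with 0 calls by limma (3 at an unadjusted p under 0.05) and a median of -0.15. The highest of each were the broadly expressed pump ATP2A2 (81.3 to 139 TPM) and the enzyme ALDOA (1542 to 1998 TPM). Of 19 genes of the neuromuscular junction and membrane, 7 were tested, with 0 calls by limma (1 at an unadjusted p under 0.05) and a median of -0.15. The acetylcholine receptor subunit CHRNB1 (32.6 to 71.6 TPM) and the sarcoglycan SGCB (14.7 to 23.4 TPM) were its most abundant genes.

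Developmental and heart isoforms were low, with 1 exception. PAX7 and MYF5, factors of muscle stem cells, were listed at 0 in all 6 tumors, MYOD1 and MYOG were above 0 only in irradiated tumor 2 (0.07 and 0.23 TPM), and MYF6, the factor of mature fibers, was at 0.69, 0.12 and 1.09 TPM in control tumors against 0, 2.48 and 0 TPM after irradiation. ACTC1, the actin of heart and of developing muscle, was lower in every irradiated tumor than in any control, as ACTA1 was, with 11.6, 8.23 and 35.3 TPM in control tumors against 0.17, 7.22 and 0.09 TPM after irradiation (limma adjusted p = 0.0972). The heart-specific MYL7 was listed at 0 in every tumor and MYBPC3 reached at most 0.03 TPM. The most abundant genes of the heart list, NKX2-5 (13.9 to 17.9 TPM) and ANKRD1 (5.91 to 19.7 TPM), were present in all 6 tumors. Of the 23 developmental genes 8 were tested, with 0 calls by limma (2 at an unadjusted p under 0.05) and a median of -0.095. Of the 10 heart genes 2 were tested, with 0 calls by limma (0 also at an unadjusted p under 0.05).

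The summed markers of smooth muscle and of fibroblasts were also lower in all 3 irradiated tumors than in any control, carried by a few abundant genes. The smooth muscle list summed to 425, 343 and 479 TPM in control tumors against 149, 167 and 216 TPM after irradiation, and 3 of its 7 tested genes were called lower (ACTG2, ACTA2 and TAGLN). ACTA2, the actin of smooth muscle and myofibroblasts, was at 176, 151 and 218 TPM in control tumors against 32.0, 45.5 and 75.5 TPM after irradiation (difference -1.88, limma adjusted p = 0.0174). Fibroblast markers summed to 534, 584 and 1081 TPM in control tumors against 179, 285 and 199 TPM after irradiation, and 3 of 9 tested genes were called lower (COL1A2, COL3A1 and COL1A1). Not all of these markers were lower: PDGFRB differed by 0.95 (limma adjusted p = 0.211), FBN1 and SYNM by 0.39 each and CALD1 by 0.0049, none of them called, and CNN1, SMTN, COL5A1 and DCN overlapped between the groups. Irradiated tumor 2, which kept fast fiber transcripts, had the highest irradiated sum of fibroblast markers but not of smooth muscle markers. Adipocyte markers summed to 20.6 to 25.6 TPM in controls and 30.6 to 42.8 TPM in irradiated tumors, with ADIPOQ and LEP listed at 0 throughout. Most of that sum was PPARG, at 15.8 to 22.6 TPM in controls and 26.5 to 37.0 TPM in irradiated tumors. Markers of blood and macrophages summed to 84.1 to 102 TPM and 96.7 to 191 TPM, with HBA1, S100A8 and S100A9 at 0 throughout. Most of that sum was CD68, at 74.9 to 94.2 TPM in controls and 91.2 to 187 TPM in irradiated tumors. In the same list, HBB was at 0, 3.35 and 3.07 TPM in control tumors against 0, 0 and 0.65 TPM after irradiation. LYZ was at 0.83 to 3.99 TPM in controls and 0.14 to 1.94 TPM in irradiated tumors, and CSF1R at 2.95 to 9.12 TPM and 3.27 to 5.53 TPM. Endothelial markers summed to 34.2 to 48.7 TPM and 50.5 to 86.7 TPM, mostly EGFL7 (26.7 to 40.3 TPM and 43.8 to 64.4 TPM). Nerve markers summed to 83.0 to 98.1 TPM and 101 to 141 TPM, mostly PMP22 (77.4 to 91.4 TPM and 94.1 to 132 TPM). PPARG, CD68, HBB, LYZ, CSF1R, EGFL7 and PMP22 were not called. Skin markers summed to 39.3 to 45.8 TPM and 13.5 to 16.2 TPM. Nearly all of this was KRT10, an epidermal keratin that fell by 1.62 (limma adjusted p = 0.00255). Because single genes carry these sums, they do not give the amount of a cell type. The part of these other cell types in the differences of the muscle genes was not tested.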

How the data were processed

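The deposited values are TPM, given by the authors in 1 table of 60606 genes with a column for each of the 6 tumors. Libraries came from total RNA with a TruSeq kit, per the labels' protocols. HISAT2, StringTie, RSEM and the build hg38 are named without versions, order or role, per the submitters' processing notes. No source used here states the authors' annotation, whether strand was used or whether mouse reads were removed.

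From these values, log2(TPM + 1) was fitted by group with limma 3.58.1 in R 4.3.3 (trend, two-sided, Benjamini-Hochberg at 0.05) for the 14140 genes averaging 1 TPM or more. The code was tested on simulated data. The 40 members, their classes and the other lists were chosen with earlier results of these data known. By the naming rule, any of the 40 could be named, with full values for called members, main myosin chains, troponins, calcium genes and a few others, and from each other list up to 3 called genes of smallest p or, with none called, up to 2 of highest mean TPM. Outside that rule, PAX7, MYF5, MYOD1, MYOG, MYF6, MYL7, MYBPC3, ADIPOQ, LEP, HBA1, HBB, LYZ, S100A8, S100A9, ESR1, CDH1, GATA3, FOXA1, PDGFRB, FBN1, SYNM, CALD1, CNN1, SMTN, COL5A1, DCN, ATP2A1-AS1 and PFN1 were named, and values per tumor of MYLPF, MYL1, MYL2, ACTN3, NEB and ENO3 were printed, after values were seen. Alternatives changed the pseudocount, filter, scaling, spread estimate, block, tumors included and the treatment of the fast myosins. Coordinates, exon overlap and shared 50-base stretches came from GENCODE release 29 (GRCh38, the assembly of hg38), and promoters from RefSeq on GRCh38.p14. The reported fit used all 6 tumors.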

Additional observations from a re-analysis of the deposited data

How the results depend on the processing

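Counts of calls moved with the settings, and of the 24 muscle genes of the reported fit, each had a difference below 0 in every alternative that tested it except TNNT1, which was not called and was above 0 in 5 alternatives (0.011 by medians of ratios, 0.0016 without mitochondrial and ribosomal protein genes, 0.082 with sample weights, 0.025 without control tumor 2 and 0.20 without irradiated tumor 3). Of all genes, 227 were called lower and 194 higher. No filter gave 64 and 69, sample weights 638 and 426, limma without trend 142 lower, and quantile normalization 309 higher. Leaving out 1 tumor gave 67 to 562 lower and 57 to 229 higher. Of the muscle genes, 3 were called, all fast. A pseudocount of 0.1 TPM, no trend and robust estimates each left 1, also fast, while a pseudocount of 5 TPM and no filter left 0 (limma, 17 and 23 at an unadjusted p under 0.05). Sample weights gave 7, of which 1 was slow and 2 shared, and quantile normalization called 1 shared gene. Leaving out 1 tumor gave 0 to 13 muscle genes, 0 to 8 of them fast and 0 to 5 shared. The following 2 joint omissions were chosen after seeing the data. Without irradiated tumor 2 and control tumor 3, 66 genes were called lower and 39 higher, with 12 muscle genes (7 fast, 5 shared). Without irradiated tumor 2 and control tumor 2, the counts were 125 and 61, with 9 muscle genes (5 fast, 4 shared).

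The median difference of fast genes was -4.39 with a pseudocount of 0.1 TPM. That of slow genes was -0.041 with a minimum mean of 5 TPM, where only TNNT1 was left, and lay between -1.24 and -0.19 with 1 tumor left out, the latter without control tumor 3. That of shared genes was -1.10 with a pseudocount of 5 TPM, -0.35 with no filter, where all 19 entered, and -1.23 without mitochondrial and ribosomal protein genes, where 26 of the 40 members were tested in place of 24. Where no construction is named, the cause was not tested.

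With the tumor number as a replicate block, 97 genes were called lower and 88 higher, with 1 muscle gene, the fast MYLPF. The numbers were not found to pair the tumors: deviations from the group means of tumors 1, 2 and 3 correlated at -0.043, -0.046 and -0.059 with the same number of the other group. With TPM alone the reads behind low values are unknown, so a gene listed at 0 may be under detection.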
